A study of Mus musculus with 14 samples.

Results

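Cells of the mouse line mSCC-38 transfected with the siRNA Si1AK were compared with cells of the same line that were not transfected (NT). mSCC-38 was isolated from a squamous cell carcinoma raised in skin by the carcinogen DMBA and the promoter TPA, and Si1AK is 1 of 2 siRNAs directed at the transcript AK144841. The comparison takes 8 of the 14 arrays of the study: 4 of Si1AK, harvested 72 h after transfection with RNAimax, a lipid reagent, and 4 of NT. For NT the labels give no time. It was taken up because these groups are spread 2 and 2 over both slides and hold neither of the 2 arrays of raised signal found elsewhere in the study. The other 6 arrays, 3 of a control siRNA (SiC) and 3 of the second siRNA (Si2AK), both at 72 h, are used beside single results. All samples are of a single cell line. The labels do not tell whether replicates came from separate cultures, and p-values therefore cover the spread among these samples alone, which may be technical. A difference between Si1AK and NT holds whatever the siRNA did and whatever lipid transfection did, and only SiC bears on the second. AK144841 itself was not analysed here, and the knockdown is not checked by any value.

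Small interfering RNAs are short duplexes loaded into the Argonaute complex, which cuts or destabilises transcripts that pair with the guide strand. Transfected duplexes can also be sensed as foreign RNA and raise interferon-stimulated genes, and they can lower transcripts that match the guide only through its seed. Squamous carcinoma cells derive from keratinocytes, which divide in the basal layer of the epidermis and, on leaving it, stop dividing and build a cornified envelope. In dividing cells, E2F factors turn on replication genes before S phase, later factors turn on mitotic genes, and p53, through its target p21, holds both back.

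On the 8 arrays, the 75th percentile of the processed signal was 797 to 1019 on Si1AK arrays and 585 to 805 on NT arrays, and 56.5% to 60.1% of probes on Si1AK arrays, against 52.7% to 58.5% on NT arrays, were well above background. No spot was saturated. Slide 1 held replicates 1 and 2 of both groups and slide 2 replicates 3 and 4, and each slide had 1 scan time. On both slides the Si1AK arrays lay in array row 1 and the NT arrays in row 2, so the row and the group cannot be told apart. The 2 arrays of raised signal were SiC replicate 1 and Si2AK replicate 2, with 90.5% and 84.9% of probes well above background, and counts that use SiC are also given without them. Levels below are log2 of the processed signal minus the 75th percentile of the array, so 0 stands for that percentile, and differences are Si1AK minus NT in log2 units with the SE from limma. A gene was called at a Benjamini-Hochberg adjusted p below 0.05 over 20474 genes. Precision is limited by the number of arrays.

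The labelled cell type was checked against its markers. Of 14 keratinocyte markers, 13 were measured, and Krt5, the type II keratin of basal keratinocytes, was at 8.14, 8.23, 8.22 and 8.34 on the Si1AK arrays and 8.45, 8.72, 8.54 and 8.62 on the NT arrays. Krt14, its partner, was at 6.84, 6.98, 6.83 and 6.88 on the Si1AK arrays and 7.11, 7.32, 7.35 and 7.38 on the NT arrays. Both keratins lay far above the 75th percentile on every array. Levels of Itga6, Itgb4 and Perp, which anchor keratinocytes to the basement membrane or to each other, were likewise at least 6.16 on each of the 8 arrays. Cdh1, the epithelial cadherin, was the marker not well above background, and Epcam lay between -4.67 and -3.58 on Si1AK arrays and -3.98 and -2.48 on NT arrays. 3 of the 13 were called, all lower: Krt18 (-0.45 ± 0.09, adjusted p = 0.0174), Krt14 (-0.40 ± 0.08, adjusted p = 0.02) and Krt5 (-0.35 ± 0.08, adjusted p = 0.0307). When levels were taken relative to the array median the differences were 0.023, 0.068 and 0.12 and none was called. These calls were lost when 1 array was left out: Krt18 without Si1AK 1, 2 or 3, adjusted p 0.0537 to 0.0615, Krt14 without Si1AK 1 or 3, adjusted p 0.0615 to 0.0684, and Krt5 without Si1AK 1, 2 or 3 or NT 2, 3 or 4, adjusted p 0.0504 to 0.0947. In bulk RNA, fewer cells of a type and less RNA per cell cannot be told apart.

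Si1AK cells differed from NT cells in 2425 of 20474 genes (11.8%), of which 1259 were higher (6.15% of genes tested) and 1166 lower (5.7%). Most differences were small: the median was 0.58 among genes called higher and -0.47 among genes called lower, and 298 genes (1.46%) changed at least 2-fold, 229 of them higher (1.12%) and 69 lower (0.337%). All 2425 called genes moved the same way on both slides, which was nearly fixed in advance because the calls rest on the arrays of both. The difference itself was not called as different between slides for any gene (limma interaction, 0 genes at adjusted p below 0.05, 1348 or 6.58% at unadjusted p below 0.05). The 4 Si1AK and 4 NT arrays did not overlap in 4497 genes (22%), with Si1AK higher in 1963 (9.59%) and lower in 2534 (12.4%). Arrays are named below by group and replicate, so that Si1AK 1 is its replicate 1. Leaving out 1 array left 982 calls without Si1AK replicate 1, 1160 without Si1AK replicate 2, 1297 without Si1AK replicate 3 and 1531 without NT replicate 2, and lower calls numbered 749 without NT replicate 1 and 688 without NT replicate 2. With slide as a block there were 1616 higher and 1845 lower calls. Within slide 1 (2 arrays a group) 270 genes were called higher and 159 lower, and within slide 2 none was called (3209 genes at unadjusted p below 0.05).

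The balance of higher and lower calls depended on the scaling. Higher calls made up 51.9% of calls relative to the 75th percentile, 69.4% after quantile normalization, 69.2% in the authors' deposited value table, 67.8% after normexp and quantile normalization, and 96% relative to the array median. The median difference over all genes tested was -0.08 relative to the 75th percentile and 0.39 relative to the array median, and directions below are read against that shift. Scaling to the array median added 0.47 to the difference of each named gene, which is enough to turn 578 of the 1166 genes called lower above 0. Lists of lower genes are therefore given under both scalings, and relative to the array median no member of any list named below was called lower. In the plot of all genes the called genes spread over the whole range of levels, and the largest differences lay among genes of low level.

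**Figure D1:**
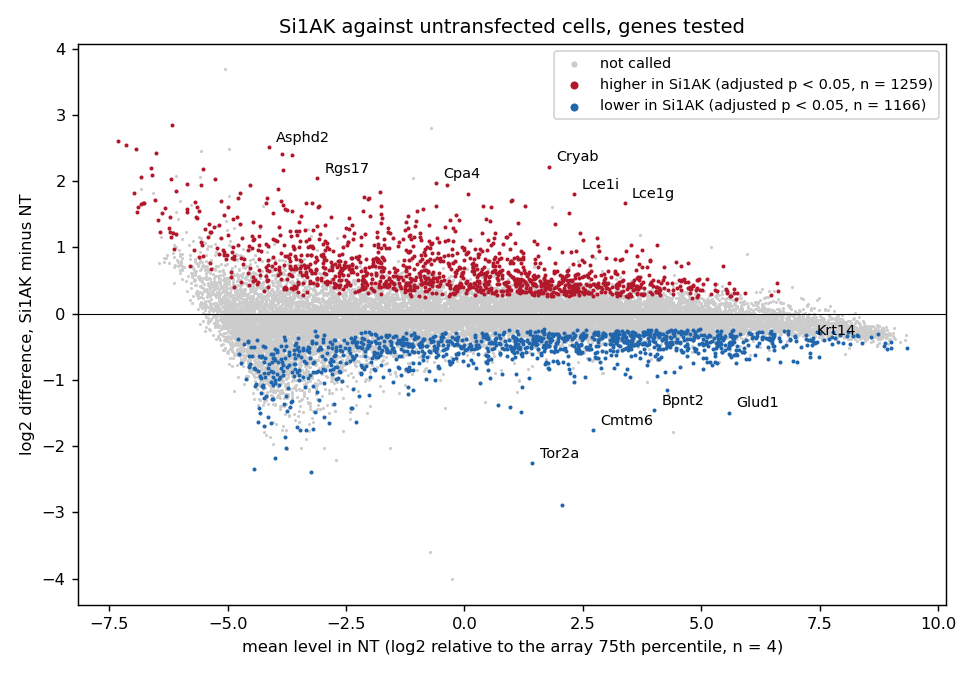
Log2 difference between Si1AK and NT cells (vertical axis, Si1AK minus NT) against the mean level in NT (horizontal axis, log2 relative to the array 75th percentile, n = 4) for 20474 genes; red points are the 1259 genes called higher in Si1AK, blue points the 1166 called lower, grey points were not called. Named points include Cryab, Lce1i and Lce1g, which stand out above the cloud at high level, and Tor2a, Cmtm6, Glud1 and Bpnt2 below it.

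Cryab, the small heat shock protein alpha B-crystallin, was at 4.12, 4.24, 3.89 and 3.72 on the Si1AK arrays, against 1.78, 1.78, 1.54 and 2.00 on the NT arrays. No NT array reached any Si1AK array, and the difference was 2.22 ± 0.14 (limma adjusted p = 0.000344; probe at chr9:50564566-50564625 of mm9). Cpa4, a secreted carboxypeptidase, stood at 1.58, 1.52, 1.41 and 1.0 on the Si1AK arrays and -0.39, -0.71, -0.75 and -0.53 on the NT arrays. Its groups were likewise apart, with a difference of 1.97 ± 0.14 (adjusted p = 0.000543; chr6:30541531-30541590). Mxd4, a member of the Mxd family that competes with Myc for the partner Max, had levels of 1.76, 2.03, 1.24 and 1.26 on the Si1AK arrays and -0.18, -0.43, -0.47 and -0.39 on the NT arrays. Every Si1AK array was higher, replicates 1 and 2 most of all, and the difference was 1.94 ± 0.18 (adjusted p = 0.00135; chr5:34519323-34519382).

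Among the other genes that rose most were regulators of the cytoskeleton and of signalling. Myl9, a regulatory light chain of non-muscle and smooth muscle myosin, was at -1.30, -1.05, -1.69 and -1.72 in Si1AK and -3.44, -4.19, -3.78 and -3.99 in NT. Dbn1, which encodes the actin-binding protein drebrin, was at 0.28, 0.31, -0.08 and -0.28 in Si1AK and -1.55, -1.54, -2.06 and -1.97 in NT. In both genes the groups were separate, as the rule for naming them required, and the differences were 2.41 ± 0.20 (adjusted p = 0.000887) and 1.83 ± 0.18 (adjusted p = 0.00149). Rgs17, a regulator of G protein signalling, gave -0.82, -0.68, -1.37 and -1.35 on the Si1AK arrays and -3.23, -3.0, -3.09 and -3.09 on the NT arrays, a difference of 2.05 ± 0.17 (adjusted p = 0.000887). Asphd2, of the aspartate beta-hydroxylase domain family, was at -1.33, -1.23, -1.82 and -2.08 in Si1AK and -3.91, -3.88, -4.46 and -4.27 in NT. That was the widest gap among the genes named by rule that were above background in both groups, 2.52 ± 0.22 (adjusted p = 0.000947). Slc29a4, a transporter of monoamines and nucleosides, and Dgki, a diacylglycerol kinase, differed by 2.04 ± 0.28 and 2.03 ± 0.30, but were well above background on 1 of 4 NT arrays each, as was Ecscr, and Anks1b was so on 2. For Slc29a4, Dgki, Ecscr and Anks1b the differences shrank to 0.91, 0.66, 0.68 and 0.87 after normexp and quantile normalization. In the authors' deposited value table they were 1.06, 0.82, 0.82 and 1.01. Ecscr, an endothelial surface protein, differed by 1.95 ± 0.52 (adjusted p = 0.0469) and lost its call without Si1AK 1, 2, 3 or 4 or NT 2 or 4, adjusted p 0.065 to 0.119. Anks1b, a scaffold of synapses, differed by 2.18 ± 0.44 on the probe that stands for it, but its lowest probe gave -0.80, only 1 of its 3 probes was called, and the call was lost without Si1AK 1 or 2, adjusted p 0.0587 to 0.0609.

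**Figure D2:**
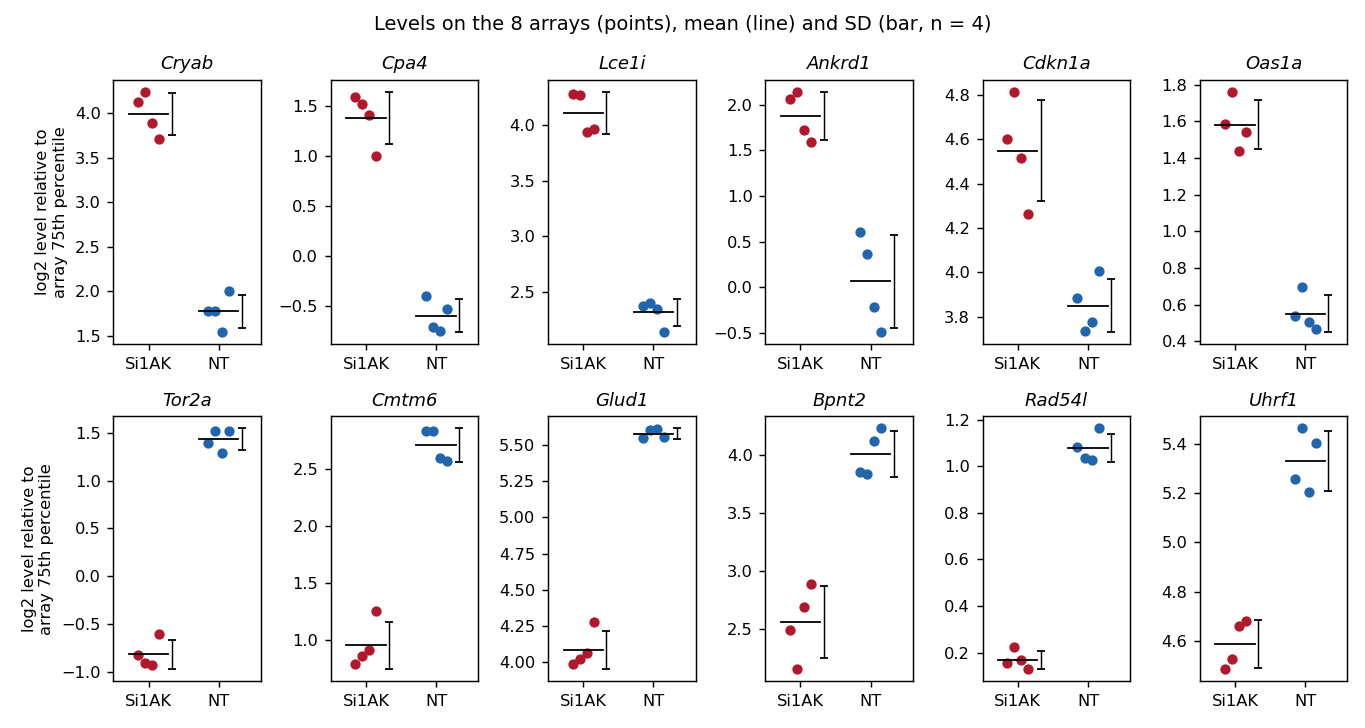
Levels of 12 genes on each array (points; vertical axis, log2 relative to the array 75th percentile) in Si1AK and NT cells, with the mean as a line and the SD as a bar (n = 4). In every panel the 4 Si1AK points lie on one side of the 4 NT points. For Cryab, Cpa4, Tor2a, Cmtm6, Glud1 and Bpnt2 the rule that picked them required this. Cryab, Cpa4, Lce1i, Ankrd1, Cdkn1a and Oas1a are higher in Si1AK. Tor2a, Cmtm6, Glud1, Bpnt2, Rad54l and Uhrf1 are lower, the last pair being called lower relative to the 75th percentile but not relative to the array median.

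Of the 12 genes named as those that fell most, 4 had NT levels above the 75th percentile of the array and were tight within groups. Tor2a, a torsin ATPase of the endoplasmic reticulum lumen, was at -0.83, -0.91, -0.94 and -0.61 on the Si1AK arrays, against 1.40, 1.52, 1.28 and 1.52 on the NT arrays. The spread within either group was a small part of the gap, -2.25 ± 0.10 (limma adjusted p = 8.8e-05; chr2:32617687-32617746 of mm9). Cmtm6, a MARVEL domain protein that keeps the checkpoint ligand PD-L1 at the cell surface, was at 0.79, 0.86, 0.91 and 1.25 in Si1AK and 2.84, 2.84, 2.60 and 2.57 in NT. Glud1, the mitochondrial glutamate dehydrogenase, was at 3.98, 4.02, 4.06 and 4.28 in Si1AK and 5.55, 5.61, 5.61 and 5.55 in NT. Bpnt2, a phosphatase of the Golgi that clears the by-product of sulfation, was at 2.49, 2.15, 2.69 and 2.88 in Si1AK and 3.85, 3.83, 4.12 and 4.23 in NT. No array crossed over in these genes, as the rule for naming them required, and the differences were -1.76 ± 0.12 (adjusted p = 0.000429), -1.49 ± 0.08 (adjusted p = 0.000246) and -1.45 ± 0.17 (adjusted p = 0.00278). Probes of these 3 genes lie at chr9:114658332-114658391, chr14:35157289-35157348 and chr4:4691556-4691615 of mm9, and both kept probes of Glud1 were called lower.

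A long intergenic non-coding RNA with no gene symbol in the files lay lower still. It was singled out after its values were seen, since the rule for named genes takes only genes with a symbol, and it had the largest fall among called genes well above background on all 8 arrays. The array design places it on the reverse strand at chr4:88745770-88774130 of mm9. Its levels were -1.07, -1.24, -0.85 and -0.13 on the Si1AK arrays and 2.10, 2.21, 2.02 and 1.92 on the NT arrays. Si1AK replicate 4 was nearest to NT, but still apart from every NT array, and the difference was -2.88 ± 0.22 (limma adjusted p = 0.000657). Its 3 probes lie side by side and gave differences between -2.88 and -2.83, each called. On the SiC arrays the level was 1.60, 2.15 and 2.04, and the difference between SiC and NT was not called (-0.13, adjusted p = 0.881). Si1AK was lower than SiC by a called difference of -2.75 ± 0.34 (adjusted p = 0.00114). Over 20 other settings the difference against NT lay between -3.31 and -2.41, and it was called in 19, the exception being slide 2 alone (adjusted p = 0.096). These settings share arrays with the fit that singled it out, so the count is no separate support.

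The other 8 had low levels, with NT means between -4.32 and -2.85, and 4 of them (Meg3, Zfyve28, Klhl31 and Atp12a) were not well above background on every Si1AK array. Meg3, an imprinted long non-coding RNA, was at -5.80, -5.62, -5.26 and -5.80 in Si1AK and -2.54, -4.32, -4.30 and -1.79 in NT. Zfyve28, a FYVE domain protein of endosomes, was at -5.19, -5.59, -5.91 and -6.51 in Si1AK and -3.01, -3.73, -4.71 and -3.64 in NT. NT arrays varied widely in both, and the differences were -2.38 ± 0.56 (adjusted p = 0.0327) and -2.02 ± 0.39 (adjusted p = 0.016). For Kctd7, Klhl31, Calcoco2 (a receptor of selective autophagy), Slc17a8 (a vesicular glutamate transporter), Atp12a (a proton pump) and Ccdc85c the differences were -1.74, -1.66, -1.66, -1.56, -1.50 and -1.48, with adjusted p between 0.00518 and 0.0478. Leaving out 1 array ended 6 of these calls, for Meg3 without Si1AK 1, 2, 3 or 4 or NT 1, adjusted p 0.0666 to 0.0908, for Kctd7 without Si1AK 1, 2, 3 or 4 or NT 1, 2 or 3, adjusted p 0.0579 to 0.106, and for Calcoco2 without Si1AK 1 or 3, adjusted p 0.0531 to 0.0568. The same held for Slc17a8 without Si1AK 1, 2, 3 or 4 or NT 1 or 2, adjusted p 0.0703 to 0.115, for Atp12a without Si1AK 1, 2, 3 or 4 or NT 1, 2 or 3, adjusted p 0.0509 to 0.0682, and for Ccdc85c without Si1AK 1, 2, 3 or 4 or NT 1, adjusted p 0.0782 to 0.0981, but for neither Zfyve28 nor Klhl31. SiC differed from NT by -1.36 for Meg3 to 0.29 for Kctd7 over 3 arrays, and by -2.90 to -0.97 without replicate 1. None of the 8 was called between Si1AK and SiC, with or without the raised arrays. Against NT their differences were smaller after normexp and quantile normalization, from -0.74 for Meg3 to -0.29 for Atp12a. In the authors' deposited value table they ran from -0.84 to -0.29 for the same pair.

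Some genes were well above background on every array of one group and on none of the other, so that only a bound can be given. There were 124 such genes on the Si1AK side, 34 of them called, and 2 on the NT side, both called. Each entered the test only through the group in which it was high, so the counts describe what was measured. The adjusted p-values of such genes carry the same limit and are not taken as support. A bound divides the mean of the bright group by a mean over the dim arrays, each of which entered with its faintest signal that was well above background, or with the signal of the probe where that was higher. Robo4, a roundabout receptor known from endothelium, was at least 3.42-fold higher in Si1AK, with limma adjusted p = 0.00536. Its measured means were -3.32 ± 0.81 in Si1AK and -6.17 ± 0.46 in NT (SD, n = 4 each). Alox5, the lipoxygenase that starts leukotriene synthesis, was at least 2.78-fold higher (adjusted p = 0.000887), the phosphodiesterase family member Enpp5 at least 2.03-fold (adjusted p = 0.000403), and the Hedgehog co-receptor Boc at least 2.02-fold (adjusted p = 0.000629). The soluble adenylyl cyclase Adcy10, at least 1.94-fold higher, did not pass (adjusted p = 0.052; passed without NT 1, adjusted p 0.0146). These bounds hold for the processed signal only. After normexp and quantile normalization the log2 differences were 1.04 for Robo4, 0.83 for Alox5, 0.62 for Enpp5, 0.72 for Boc and 0.54 for Adcy10, and in the authors' deposited value table they were 1.24, 1.01, 0.75, 0.98 and 0.66, all smaller than the bounds above.

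SiC cells received lipid and an siRNA as well, and SiC was therefore set beside the comparison. The contrast of SiC with NT shares the NT arrays with that of Si1AK with NT, so the values are given side by side. No gene was called between SiC and NT (limma, 0 of 20474 or 0%, with 1514 genes at unadjusted p below 0.05; 7 genes without SiC replicate 3 and 1 with slide as a block). Between Si1AK and SiC 932 genes were called (4.55%), 705 higher (3.44%) and 227 lower (1.11%). Of the 1259 genes higher in Si1AK than in NT, 578 were also called higher than in SiC (611 without the 2 arrays of raised signal), and their median difference between SiC and NT was 0.07. Among the 1166 lower ones, 178 were lower than in SiC too (265 without those arrays), with a median difference between SiC and NT of -0.15. In neither direction was a gene called the opposite way against SiC. The contrasts of Si1AK with NT and with SiC share the Si1AK arrays, so this agreement in direction was nearly fixed in advance. The numbers of genes called in both contrasts rest in part on those shared arrays and are no separate support.

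Cryab differed from NT by 2.22 in Si1AK and by 0.17 in SiC, and Cpa4 by 1.97 in Si1AK and -0.25 in SiC. Si1AK against SiC gave 2.05 ± 0.16 (adjusted p = 6.75e-05) and 2.22 ± 0.15 (adjusted p = 4.78e-05). Tor2a, Cmtm6, Glud1 and Bpnt2 were at -0.13, -0.24, -0.19 and -0.08 in SiC relative to NT. Si1AK against SiC was -2.12 ± 0.11, -1.52 ± 0.14, -1.31 ± 0.10 and -1.37 ± 0.17 (adjusted p = 8.42e-06, 0.000179, 6.75e-05 and 0.00125). In these 4 genes the second siRNA did not share the low level: Si2AK against Si1AK was 2.67 ± 0.11, 2.20 ± 0.14, 1.58 ± 0.10 and 1.29 ± 0.17 (adjusted p = 5.21e-07, 3.37e-06, 3.16e-06 and 0.000501). Between the 2 siRNAs 2735 genes were called (13.4%), 1381 of them higher in Si2AK (6.75%) and 1354 lower (6.61%). Myl9 is a case that turned on the raised arrays. In this gene the difference between SiC and NT was 0.88 over 3 SiC arrays and -0.08 without SiC replicate 1, and Si1AK against SiC was not called over all arrays (adjusted p = 0.172) and was called without the 2 raised arrays (adjusted p = 0.00117). Over the 146 genes named by rule, 56 were called between Si1AK and SiC with all arrays, 65 without the raised ones and 47 both ways. The calls of Uhrf1, Bard1 and Palb2 against SiC, given below, also differ between these fits.

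**Figure D3:**
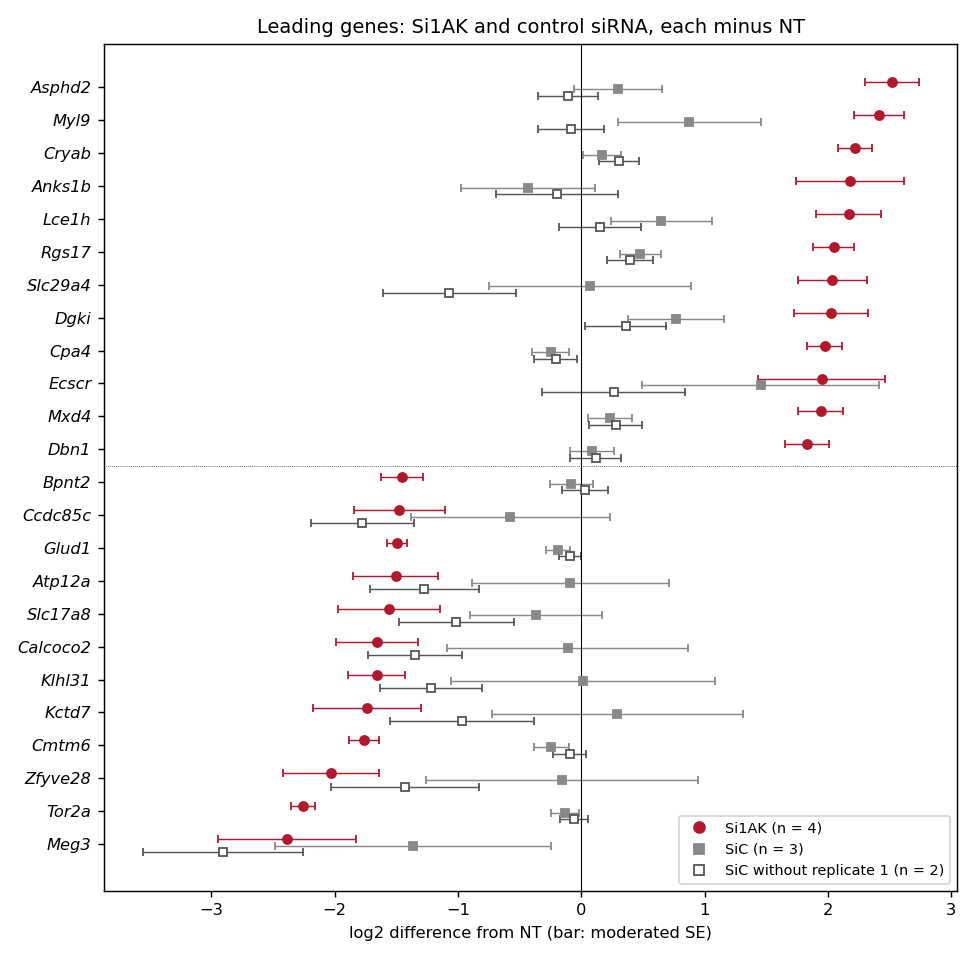
Log2 difference from NT (horizontal axis, with the moderated SE as a bar) of the 12 genes named as highest and the 12 named as lowest in Si1AK (red circles, n = 4), beside the control siRNA over 3 arrays (grey squares) and without its replicate 1 (open squares, n = 2). For Cryab, Cpa4, Tor2a, Cmtm6, Glud1 and Bpnt2 the control siRNA lies near 0, while for Meg3 its open square lies as low as the Si1AK point; all share the same 4 NT arrays.

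Gene lists were then read by role. The background for each count is 6.15% of genes higher and 5.7% lower, and a median of -0.08 over all genes tested. p53 targets, matrix proteases and YAP or TGF-beta targets had the highest medians among the lists of pathways, and DNA replication, mitosis and DNA repair the lowest, as the plot of list members shows. The medians on slide 1 and slide 2 were 0.42 and 0.30 for p53 targets, 0.33 and 0.39 for matrix proteases, 0.26 and 0.39 for YAP and TGF-beta targets, 0.27 and 0.31 for the interferon response, -0.48 and -0.34 for replication, -0.47 and -0.39 for mitosis and -0.32 and -0.34 for repair, so that each had 1 sign on both slides. The medians over both slides come from the same arrays, so the shared sign is no separate support.

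**Figure D4:**
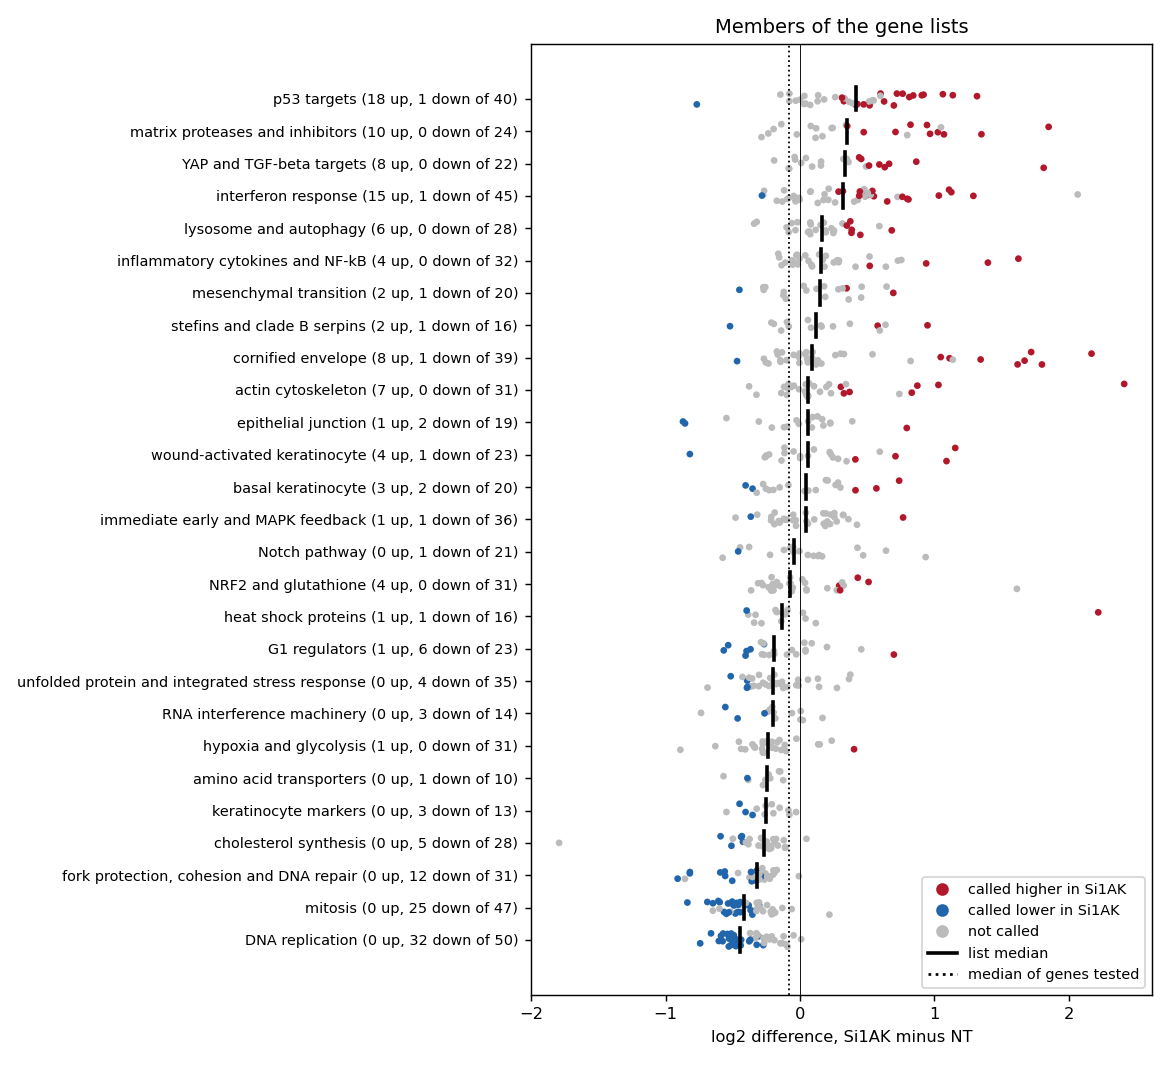
Log2 difference between Si1AK and NT (horizontal axis, Si1AK minus NT) of each tested member of 27 gene lists, ordered by the list median (black tick); red members were called higher, blue members lower and grey ones were not called, and the dotted line is the median of all genes tested (-0.08). The p53 targets lie at the top with a median of 0.41 and DNA replication at the bottom with -0.44, and the lists of replication, mitosis and repair hold blue members but no red one; relative to the array median none of their members was called and their medians were 0.03, 0.06 and 0.15.

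Targets of p53, the factor that halts the cell cycle and starts repair or death after damage, were called higher in 18 of 40 cases and lower in 1, with a median of 0.41. Cdkn1a, which encodes the cyclin-dependent kinase inhibitor p21, was at 4.60, 4.81, 4.51 and 4.26 on the Si1AK arrays and 3.88, 3.73, 3.78 and 4.0 on the NT arrays. The groups did not overlap, and the difference was 0.70 ± 0.12 (limma adjusted p = 0.0121); against SiC it was 0.83 ± 0.13 (adjusted p = 0.00347). Dcxr, a carbonyl reductase, was at 4.14, 4.22, 3.76 and 3.58 in Si1AK and 2.92, 2.91, 2.63 and 2.69 in NT. Polk, a translesion DNA polymerase, was at 0.72, 0.36, 0.31 and 0.12 in Si1AK and -0.61, -0.90, -0.60 and -0.64 in NT. Both rose by more than the spread within groups, 1.14 ± 0.16 (adjusted p = 0.00491) and 1.06 ± 0.14 (adjusted p = 0.00384). Fas, a death receptor, was at 2.33, 2.35, 1.91 and 2.00 in Si1AK and 1.57, 1.26, 0.99 and 1.10 in NT, with a difference of 0.92 ± 0.15 (adjusted p = 0.00981). Eda2r, a receptor of the tumour necrosis factor family, rose by 1.32 ± 0.16 (adjusted p = 0.00359), and SiC differed from NT by 0.83 over 3 arrays and 0.26 without replicate 1. Only 1 of its 2 probes was called, and the other gave 0.30. The difference of Eda2r was 0.73 after normexp and quantile normalization and 0.83 in the authors' deposited value table. Cyfip2, a component of the WAVE complex, rose by 0.91 ± 0.18 (adjusted p = 0.0168), a call lost without Si1AK 2 or 3, adjusted p 0.0514 to 0.0543. Feedback regulators and death genes among the 18 were Mdm2 (0.52), Ccng1 (0.72), Btg2 (0.84), Trp53inp1 (0.76), Zmat3 (0.60), Tnfrsf10b (0.63) and Bbc3 (0.33). Not called were Bax (0.51, adjusted p = 0.217), Gdf15 (0.54, adjusted p = 0.109), Gadd45a (0.03) and Sesn1 (-0.03). Trp73, a relative of p53 itself, was the member called lower (-0.77, adjusted p = 0.00604), but relative to the array median 0 of the list were called lower. Against SiC, 16 of the 40 were called higher (14 without the raised arrays) and 0 lower, and the list median between SiC and NT was -0.12.

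Of 50 genes measured that copy DNA, 32 were called lower and 0 higher relative to the 75th percentile, with a median of -0.44, whereas relative to the array median 0 were called and the median was 0.03. Lower calls numbered 31 after quantile normalization, 31 after normexp and quantile normalization and 28 in the authors' deposited value table. Against the median of all genes the list stood at -0.37 relative to the 75th percentile and to the array median alike, by construction, since these scalings differ by a constant. Uhrf1, which guides maintenance DNA methylation behind the fork, was at 4.49, 4.53, 4.66 and 4.68 on the Si1AK arrays and 5.26, 5.46, 5.20 and 5.41 on the NT arrays. Mcm7, a subunit of the replicative helicase, was at 4.88, 4.96, 5.08 and 5.04 in Si1AK and 5.42, 5.57, 5.64 and 5.74 in NT. The groups were separate in both, with differences of -0.74 ± 0.09 (limma adjusted p = 0.00288) and -0.60 ± 0.09 (adjusted p = 0.00598). Pold3, a subunit of DNA polymerase delta, was at 2.12, 2.26, 2.33 and 2.50 in Si1AK and 2.96, 3.08, 2.87 and 2.95 in NT. Gins1, of the helicase's GINS complex, was at 2.26, 2.46, 2.42 and 2.55 in Si1AK and 2.96, 3.02, 3.03 and 2.98 in NT. They fell by 0.66 and 0.58 on the log2 scale (adjusted p = 0.0058 and 0.00456). Cdt1, which loads the helicase at origins, differed by -0.59 ± 0.12 (adjusted p = 0.0179), and its call was lost without Si1AK 1 or 2, adjusted p 0.0537 to 0.0578.

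Members of several steps were among the 32. Of the helicase there were Mcm2 (-0.50), Mcm3 (-0.51), Mcm4 (-0.51), Mcm5 (-0.57) and Mcm6 (-0.45). Of the flap removal and sealing of Okazaki fragments there were Fen1 (-0.54) and Lig1 (-0.53). Of nucleotide supply there were Tyms (-0.49), Rrm1 (-0.48), Rrm2 (-0.47), Tk1 (-0.48) and Dut (-0.53), and of chromatin copying there were Dnmt1 (-0.52), Chaf1a (-0.37) and Chaf1b (-0.47). Pcna, the sliding clamp, was at -0.38 (adjusted p = 0.0158). The primase and polymerase alpha subunits Prim1 (-0.21), Prim2 (-0.27), Pola1 (-0.11) and Pola2 (-0.15) were not called, nor was Gins2 (0.01). Against SiC 6 of the 50 were called lower (17 without the raised arrays), Gins1 (-0.54 ± 0.09, adjusted p = 0.00442), Mcm7 (-0.49 ± 0.10, adjusted p = 0.0148) and Pold3 (-0.46 ± 0.11, adjusted p = 0.0314) among them. Uhrf1, at -0.37 in SiC relative to NT, was not called against SiC over all arrays (-0.37 ± 0.13, adjusted p = 0.145). It was called without the raised arrays (-0.56 ± 0.09, adjusted p = 0.0101). Cdt1 was not called against SiC in either fit (-0.30 ± 0.18, adjusted p = 0.387, over all arrays). The list median between SiC and NT was -0.14, and -0.04 without the raised arrays.

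E2F factors bind letters such as TTTCGCGC in promoters of replication genes. The 250 bases before the start of each gene were searched on both strands for TTTCCCGC, TTTCGCGC, TTTGCCGC and TTTGGCGC, in RefSeq promoters of GRCm38.p6. Of 26 genes called lower whose promoter was listed, 7 held a match, as did 3 of 14 other members and 583 of 27025 genes in all (2.16%). Windows around the match are printed for 3 of the genes above, with the match in capitals. Those of Uhrf1 (chr17:56304093-56304170, plus strand), Mcm7 (chr5:138172006-138172083, minus strand) and Mcm5 (chr8:75109325-75109402, plus strand) are on the strand of the gene, and in Mcm7 and Mcm5 the match reads on the other strand. The promoter of Mcm5 held 2 matches, which overlap.

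Uhrf1: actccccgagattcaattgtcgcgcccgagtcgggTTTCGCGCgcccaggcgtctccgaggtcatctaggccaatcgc
Mcm7: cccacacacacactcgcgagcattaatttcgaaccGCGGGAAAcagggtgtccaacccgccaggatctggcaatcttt
Mcm5: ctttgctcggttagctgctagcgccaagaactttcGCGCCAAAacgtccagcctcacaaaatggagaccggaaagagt

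A match describes these letters only and says nothing on whether a factor was bound.

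Of 31 genes measured that protect forks, hold sister chromatids together or repair DNA, 12 were called lower and 0 higher, with a median of -0.32 relative to the 75th percentile, and 0 calls and a median of 0.15 relative to the array median. Lower calls numbered 10 after quantile normalization, 13 after normexp and quantile normalization and 11 in the authors' deposited value table. Rad54l, a motor of homologous recombination, was at 0.15, 0.22, 0.17 and 0.13 on the Si1AK arrays and 1.08, 1.04, 1.03 and 1.16 on the NT arrays. Its groups were tight and far apart, -0.91 ± 0.06 (limma adjusted p = 0.000429; chr4:115769618-115769677 of mm9). Timeless, a fork protection factor, was at 1.86, 1.91, 2.26 and 2.19 in Si1AK and 2.78, 2.73, 3.04 and 2.95 in NT. Clspn, the adaptor of the replication checkpoint, was at -1.55, -1.60, -1.04 and -1.20 in Si1AK and -0.54, -0.31, -0.74 and -0.53 in NT. Neither overlapped between groups, and the differences were -0.82 ± 0.12 (adjusted p = 0.00577) and -0.82 ± 0.15 (adjusted p = 0.0134). Palb2, which brings BRCA2 to breaks, fell by 0.56 (adjusted p = 0.00506), and Bard1, the partner of BRCA1, by 0.59 (adjusted p = 0.0227), a call lost without Si1AK 1 or 2, adjusted p 0.0691 to 0.0693. Rad54l differed from NT by -0.39 in SiC (adjusted p = 0.629), and Si1AK lay below SiC (-0.52 ± 0.08, adjusted p = 0.00479). Timeless and Clspn, at -0.09 and 0.07 in SiC relative to NT, were -0.73 ± 0.13 (adjusted p = 0.01) and -0.89 ± 0.15 (adjusted p = 0.00603) against SiC. Bard1 was not called against SiC over all arrays (-0.40 ± 0.16, adjusted p = 0.196) but was without the raised arrays (-0.58 ± 0.14, adjusted p = 0.0416). For Palb2 the reverse held (-0.31 ± 0.08, adjusted p = 0.0465, and -0.29 ± 0.09, adjusted p = 0.0995). Of the 31, 6 were called lower than in SiC (8 without the raised arrays). Brca2 (-0.86, adjusted p = 0.0921), Brca1 (-0.28) and Atr (-0.01) were not called.

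Of 47 genes of mitosis 25 were called lower and 0 higher, with a median of -0.41 relative to the 75th percentile, while relative to the array median 0 were called and the median was 0.06. Lower calls numbered 21 after quantile normalization, 23 after normexp and quantile normalization and 22 in the authors' deposited value table. Ncapd2, a condensin subunit, was at 3.33, 3.36, 3.44 and 3.53 in Si1AK and 4.06, 3.96, 4.11 and 4.30 in NT. Kif20a, a kinesin of cytokinesis, was at 3.38, 3.54, 3.48 and 3.64 in Si1AK and 4.04, 4.25, 4.14 and 4.21 in NT. Both groups of arrays were separate, with differences of -0.69 ± 0.09 (limma adjusted p = 0.00439) and -0.65 ± 0.08 (adjusted p = 0.00373). Bub1b, of the spindle checkpoint, was at 1.83, 1.84, 1.85 and 1.67 in Si1AK and 2.38, 2.40, 2.37 and 2.43 in NT (-0.60 ± 0.07, adjusted p = 0.00259). Kif2c, a kinesin that takes microtubules apart, differed by -0.61 ± 0.10 (adjusted p = 0.00967). Aurkb, a kinase of the chromosomal passenger complex, was at -3.78, -3.54, -3.71 and -3.40 in Si1AK and -2.92, -2.54, -2.98 and -2.63 in NT, a difference of -0.84 ± 0.13 (adjusted p = 0.00745) that was not called under any other scaling, with -0.55 after quantile normalization, -0.37 relative to the array median, -0.24 after normexp and -0.20 in the authors' deposited value table. The cyclins Ccnb1 (-0.56), Ccna2 (-0.53) and Ccnb2 (-0.51) and the kinases Plk1 (-0.46) and Aurka (-0.48) were among the 25. Not called were Cdk1 (-0.46, adjusted p = 0.143), Top2a (-0.24, adjusted p = 0.116) and the proliferation marker Mki67, the one member with a positive difference (0.22, adjusted p = 0.805). Against SiC 5 of the 47 were called lower (10 without the raised arrays), Ncapd2 (-0.53 ± 0.11, adjusted p = 0.0208) and Bub1b (-0.44 ± 0.10, adjusted p = 0.0263) among them. Kif20a (-0.34 ± 0.13, adjusted p = 0.168) and Aurkb (-0.44 ± 0.15, adjusted p = 0.139) were not called against SiC, with or without the raised arrays. In SiC these genes differed from NT by -0.30 and -0.40 (-0.17 and -0.29 without the raised arrays).

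The element known as CHR, read as TTTGAA, lies in promoters of genes turned on in G2 and repressed by the DREAM complex. It was found on either strand of the 250 bases in 7 of 20 genes called lower with a promoter, in 8 of 19 other members and in 4934 of 27025 genes in all (18.3%). Windows of Ncapd2 (chr6:125191669-125191744, minus strand) and Kif2c (chr4:117178835-117178910, minus strand) of GRCm38.p6, from RefSeq, show the match in capitals, which in Kif2c reads on the other strand.

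Ncapd2: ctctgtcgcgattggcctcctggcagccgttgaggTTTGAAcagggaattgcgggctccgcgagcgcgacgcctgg
Kif2c: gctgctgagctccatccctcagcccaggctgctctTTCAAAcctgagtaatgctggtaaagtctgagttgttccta

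Among 23 regulators of G1, which decide entry into S phase, 6 were called lower and 1, Cdkn1a, higher (median -0.19, or 0.28 relative to the array median). E2f2, an activating E2F factor, was at 2.44, 2.52, 2.18 and 2.22 in Si1AK and 2.97, 2.99, 2.78 and 2.88 in NT (-0.57 ± 0.10, limma adjusted p = 0.0115). The INK4 inhibitors Cdkn2c (-0.53, adjusted p = 0.00743) and Cdkn2d (-0.40, adjusted p = 0.0211) and the kinase Cdk2 (-0.40, adjusted p = 0.00951) fell relative to the 75th percentile, but relative to the array median E2f2, Cdkn2c, Cdk2 and Cdkn2d had differences of -0.094, -0.062, 0.068 and 0.075, and 0 genes of the list were called lower. The call of Cdkn2d was also lost without Si1AK 1, 2 or 3 or NT 1, adjusted p 0.0502 to 0.0644. Skp2 and Cdk4 were the other called members. Between Si1AK and SiC 0 of the 23 were called lower, with or without the raised arrays. E2f2, Cdkn2c, Cdk2 and Cdkn2d were at -0.33, -0.17, -0.23 and -0.17 against SiC, and SiC was at -0.24, -0.36, -0.18 and -0.23 relative to NT.

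List medians were also taken array by array, relative to the NT mean of each gene. For p53 targets they were 0.50, 0.45, 0.32 and 0.35 on the Si1AK arrays, -0.26, -0.04 and -0.04 on the SiC arrays and 0.01, -0.02, -0.04 and 0.02 on the NT arrays. Replication genes stood at -0.49, -0.44, -0.37 and -0.34 on the Si1AK arrays, -0.32, -0.02 and -0.06 on the SiC arrays and -0.04, 0.05, 0.03 and -0.03 on the NT arrays. Each Si1AK array was apart from each NT array in both lists, and SiC replicates 2 and 3 lay with NT. SiC replicate 1, the array of raised signal, was the lowest of the SiC arrays in both.

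**Figure D5:**
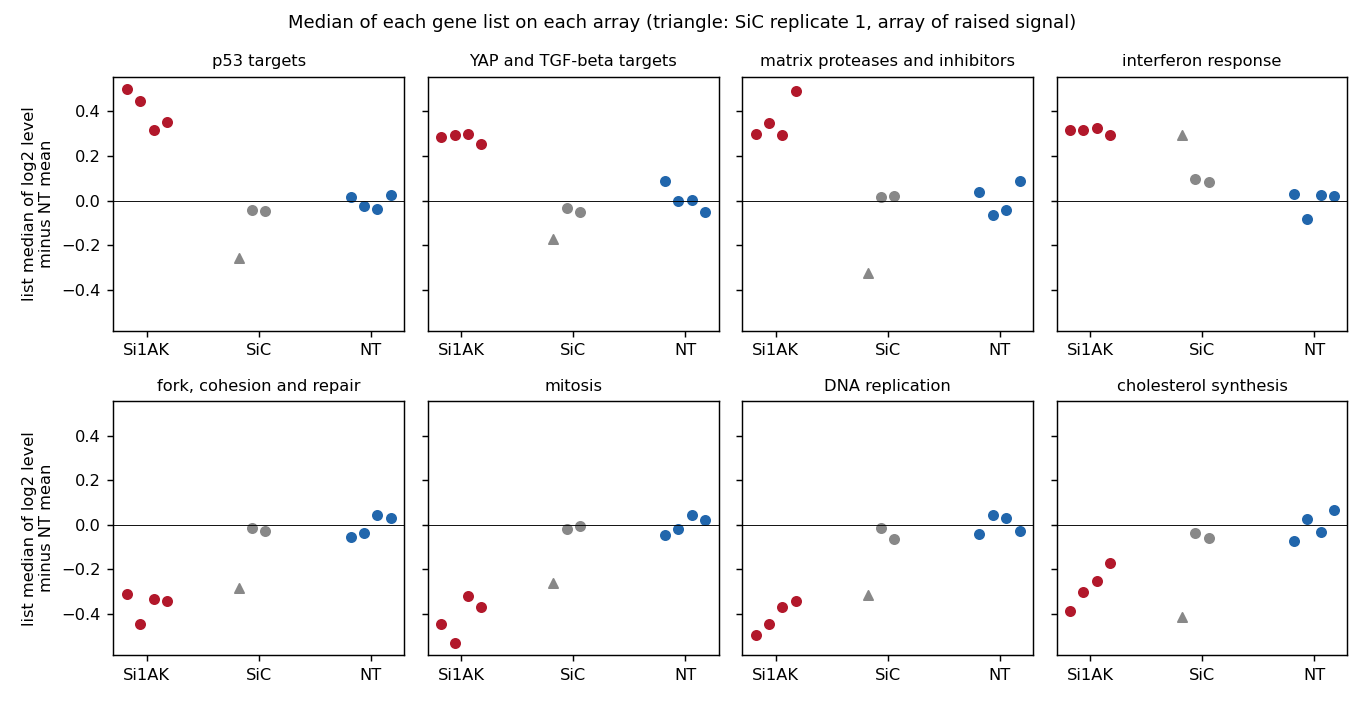
Median over list members of the log2 level minus the NT mean (vertical axis) on each Si1AK (n = 4), SiC (n = 3) and NT (n = 4) array for 8 gene lists; the triangle is SiC replicate 1, the array of raised signal. The Si1AK arrays lie above the NT arrays for p53 targets, YAP and TGF-beta targets, matrix proteases and interferon response and below them for repair, mitosis, replication and cholesterol synthesis, levels here being relative to the 75th percentile (relative to the array median the last 4 lists had positive medians).

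Interferon response genes were higher in part: of 53 on the array 45 were measured, 15 were called higher and 1 lower, and the median was 0.32. Oas1a, an oligoadenylate synthetase that senses double-stranded RNA, was at 1.59, 1.76, 1.44 and 1.54 on the Si1AK arrays and 0.54, 0.69, 0.50 and 0.47 on the NT arrays. The groups were separate, and the difference was 1.03 ± 0.09 (limma adjusted p = 0.000947; chr5:121346735-121346794 of mm9). Oasl2, a relative, was at -2.07, -1.60, -2.06 and -2.07 in Si1AK and -3.02, -3.35, -2.94 and -3.01 in NT. Ifit1, which binds foreign RNA ends, was at -2.60, -2.85, -3.22 and -2.92 in Si1AK and -3.99, -4.45, -3.83 and -3.75 in NT. No array overlapped in either gene, and the differences were 1.13 ± 0.14 (adjusted p = 0.0034) and 1.11 ± 0.18 (adjusted p = 0.00934). Tap1, a subunit of the peptide transporter of antigen presentation, differed by 0.81 ± 0.12 (adjusted p = 0.00623). Ifit3 was not well above background on any NT array and was at least 1.11-fold higher in Si1AK, a call lost without Si1AK 1, 2, 3 or 4 or NT 4, adjusted p 0.0538 to 0.104. It entered the test, and the count of 15, only through Si1AK, so its call is not taken as support. Zbp1, a sensor of left-handed nucleic acid (0.80), Ddx58, the RNA sensor RIG-I (0.49), and Irf9, part of the ISGF3 factor (0.32), were called higher as well. Isg15 (0.26, adjusted p = 0.222), Irf7 (0.18, adjusted p = 0.625), Mx1 (-0.17) and Mx2 (-0.03) were not called, nor was Usp18 (2.07, adjusted p = 0.104). Rsad2 and Cxcl10 were among the 8 not well above background. Parp9 was called lower (-0.28, adjusted p = 0.0264), by less than the 0.47 that separates the scalings.

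The list median between SiC and NT was 0.19 (0.09 without the raised arrays), and 3 of the 45 genes were called higher and 1 lower in Si1AK than in SiC (4 and 1 without the raised arrays). Ifit1 differed from NT by 1.10 in SiC (adjusted p = 0.629), and Si1AK against SiC was 0.01 ± 0.20 (adjusted p = 0.984). Oasl2 differed from NT by 0.68 in SiC, and Si1AK against SiC was 0.44 ± 0.14 (adjusted p = 0.117). Oas1a was at -0.02 in SiC relative to NT, and Si1AK exceeded SiC by 1.05 ± 0.11 (adjusted p = 0.000327). Si2AK differed from Si1AK by -1.83 ± 0.11 (adjusted p = 2.85e-06).

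ISGF3 binds the interferon-stimulated response element, whose core is read here as GAAA and GAAA with a pair of any bases between. In the 250 bases before the start, on either strand, it was found in 3 of 11 called-higher members with a RefSeq promoter (GRCm38.p6), in 7 of 23 other members and in 936 of 27025 genes in all (3.46%). Those 3 are shown with the match in capitals, Oas1a (chr5:120907526-120907574, minus strand), Ifit1 (chr19:34640769-34640848, plus strand) and Ifit3 (chr19:34583372-34583451, plus strand), as the called genes that hold the core. Each of these promoters held 2 matches. In Ifit1 and Ifit3 the match reads on the other strand.

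Oas1a: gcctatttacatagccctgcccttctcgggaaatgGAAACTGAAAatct
Ifit1: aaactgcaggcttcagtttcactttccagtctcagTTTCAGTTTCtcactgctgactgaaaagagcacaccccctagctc
Ifit3: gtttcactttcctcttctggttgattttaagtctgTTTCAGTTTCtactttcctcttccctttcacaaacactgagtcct

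Genes of the cornified envelope, the protein shell of the outermost skin cells, did not move as 1 group. Of 57 on the array 39 were measured, 8 were called higher and 1 lower, with a median of 0.09. Lce1i, a late cornified envelope gene, was at 4.28, 4.27, 3.94 and 3.96 on the Si1AK arrays and 2.37, 2.40, 2.34 and 2.13 on the NT arrays. Lce1c was at 2.72, 2.72, 2.79 and 2.67 in Si1AK and 0.95, 1.11, 0.94 and 1.02 in NT. The gap was many times the spread within groups in both, 1.80 ± 0.11 (limma adjusted p = 0.000344; chr3:92581159-92581218 of mm9) and 1.72 ± 0.07 (adjusted p = 8.8e-05). Lce1g (1.67 ± 0.09, adjusted p = 0.000238), Lce1h (2.17 ± 0.26, adjusted p = 0.00337) and Lce1a2 (1.11, adjusted p = 0.000344) rose too. Lce1d (-0.27), Lce1m (-0.25), Lce1f (0.12) and Lce1e (0.82, adjusted p = 0.157) were not called. These near-identical genes may share signal, so the split within the family is uncertain. Casp14, the caspase of terminal differentiation, was at 1.20, 1.27, 1.01 and 0.62 in Si1AK and -0.45, -0.76, -0.75 and -0.43 in NT, a difference of 1.62 ± 0.16 (adjusted p = 0.00149). Against SiC, Casp14 was 1.90 ± 0.15 (adjusted p = 7.09e-05), and Si2AK differed from Si1AK by -1.96 ± 0.15 (adjusted p = 1.17e-05). Crct1 (1.34, adjusted p = 0.00305) and Grhl3, a factor that drives barrier genes (1.05, adjusted p = 0.00339), were called higher, and Krtdap was called lower (-0.47), about the difference between the scalings. Against SiC 8 of the 39 were called higher (9 without the raised arrays). The Lce3 genes measured lay between -0.14 and 0.13, and Flg (0.05), Ivl (0.26), Krt10 (-0.15) and Sprr1b (-0.17) were not called either.

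Basal and wound-activated genes of keratinocytes moved in both directions. Of 20 basal genes 3 were called higher, Col7a1 of the anchoring fibrils (0.74 ± 0.12, limma adjusted p = 0.00853), the collagen receptor Itga2 (0.57 ± 0.13, adjusted p = 0.0274) and the laminin chain Lamb3 (0.41 ± 0.10, adjusted p = 0.036). The call of Itga2 was lost without Si1AK 1 or 2 or NT 2, adjusted p 0.0657 to 0.0771, and that of Lamb3 without Si1AK 1, 2 or 4 or NT 2, 3 or 4, adjusted p 0.0632 to 0.0992. Krt5 and Krt14 were the 2 called lower. In the wound-activated list 4 of 23 were called higher and 1 lower. S100a7a, a psoriasin-like protein, was at 0.11, 0.38, 0.28 and 0.12 in Si1AK and -0.97, -0.76, -0.90 and -1.09 in NT. The alarm cytokine Il1a was at 2.75, 2.40, 2.52 and 2.59 in Si1AK and 1.66, 1.36, 1.58 and 1.30 in NT. Both were separate between groups, with differences of 1.16 ± 0.10 (adjusted p = 0.000916) and 1.09 ± 0.11 (adjusted p = 0.00179). Il1a also stood 0.54 above NT in SiC, and Si1AK against SiC was not called (0.55 ± 0.17, adjusted p = 0.106). S100a8 (0.41, adjusted p = 0.0382) rose and the stress keratin Krt6b (-0.82, adjusted p = 0.0403) fell, the call of S100a8 being lost without Si1AK 1, 2 or 4 or NT 1, 2 or 4, adjusted p 0.0586 to 0.1, and that of Krt6b without Si1AK 1, 2, 3 or 4 or NT 1 or 2, adjusted p 0.0641 to 0.0997. Among 16 stefins and clade B serpins, Serpinb2, the plasminogen activator inhibitor PAI-2, rose by 0.95 ± 0.13 (adjusted p = 0.00468) and the cystatin Cst6 by 0.58 ± 0.09 (adjusted p = 0.00902). Serpinb1a was lower (-0.52, adjusted p = 0.0471; lost without Si1AK 1, 2 or 3 or NT 2, 3 or 4, adjusted p 0.0827 to 0.124). Relative to the array median Krt6b was at -0.35 and Serpinb1a at -0.05, and neither was called. Of 19 junction genes, the plakophilin Pkp2 rose (0.79 ± 0.14, adjusted p = 0.0114). The epithelial factors Ovol1 (-0.87 ± 0.15, adjusted p = 0.011) and Grhl2 (-0.86 ± 0.20, adjusted p = 0.0326; lost without Si1AK 1, 2, 3 or 4, adjusted p 0.0561 to 0.0913) fell, though relative to the array median neither fall was called.

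YAP and TGF-beta targets rose in 8 of 22 cases, with 0 called lower and a median of 0.34. Ankrd1, a nuclear ankyrin protein and a classical YAP target, was at 2.06, 2.14, 1.72 and 1.60 on the Si1AK arrays and 0.61, 0.37, -0.21 and -0.49 on the NT arrays. NT was lower on slide 2, yet no array overlapped, and the difference was 1.81 ± 0.25 (limma adjusted p = 0.00505; chr19:36186809-36186868 of mm9). Ccn1, the matricellular protein CYR61, was at 4.36, 4.35, 4.72 and 4.61 in Si1AK and 3.72, 3.46, 3.73 and 3.68 in NT (0.87 ± 0.11, adjusted p = 0.00407). Against SiC, Ankrd1 was 1.84 ± 0.27 (adjusted p = 0.00257) and Ccn1 1.03 ± 0.18 (adjusted p = 0.00751), and 9 of the 22 were called higher, with or without the raised arrays. The ligand Tgfb2 (0.66 ± 0.12, adjusted p = 0.0126), Crim1 (0.63 ± 0.12, adjusted p = 0.0136) and the phosphatase Ptpn14 (0.59 ± 0.12, adjusted p = 0.0196; lost without Si1AK 1, 2 or 3, adjusted p 0.0514 to 0.0662) rose as well. Ccn2 (0.32, adjusted p = 0.118) and Axl (-0.04) were not called.

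Of 31 actin cytoskeleton genes 7 were called higher and 0 lower (median 0.06). Besides Myl9, the smooth muscle actin Acta2 was at 5.14, 5.21, 5.09 and 4.93 in Si1AK and 4.02, 3.97, 4.04 and 4.22 in NT. Its groups were far apart, 1.03 ± 0.09 (limma adjusted p = 0.000916), and so they were against SiC (1.07 ± 0.09, adjusted p = 0.000129). Cnn1, the calponin of smooth muscle, differed by 0.83 ± 0.08 (adjusted p = 0.0016), the LIM protein Fhl1 by 0.87 ± 0.12 (adjusted p = 0.00549) and the calponin Cnn2 by 0.37 ± 0.07 (adjusted p = 0.018; lost without Si1AK 1, 2 or 3, adjusted p 0.0567 to 0.0658). In the list of mesenchymal transition, 2 of 20 were higher and 1 lower, with the integrin Itga5 at 0.69 ± 0.18 (adjusted p = 0.0429; lost without Si1AK 1, 2 or 3 or NT 1, 2 or 3, adjusted p 0.0761 to 0.102). The factors Zeb2 (0.35, adjusted p = 0.041) and Prrx1 (-0.45, adjusted p = 0.00579) each had 2 probes that disagreed in sign, from -1.13 to 0.35 and from -0.45 to 0.36. The call of Zeb2 was lost without Si1AK 1, 3 or 4 or NT 1, 2 or 3, adjusted p 0.0624 to 0.117, and Prrx1 was at 0.022 relative to the array median.

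Matrix proteases, which cut collagen and free growth factors, rose in 10 of 24 measured cases, with 0 lower and a median of 0.35. Mmp10, stromelysin-2, was at 3.05, 3.15, 3.16 and 3.69 on the Si1AK arrays and 1.88, 1.73, 2.03 and 2.00 on the NT arrays. The interstitial collagenase Mmp1b was at 2.24, 2.09, 2.02 and 2.23 in Si1AK and 0.96, 0.91, 1.26 and 1.16 in NT. Neither overlapped, and the differences were 1.35 ± 0.15 (limma adjusted p = 0.00224) and 1.07 ± 0.10 (adjusted p = 0.00133). Its close paralog Mmp1a differed by 1.03 ± 0.10 (adjusted p = 0.00164), and how far the probes share signal is uncertain. Mmp9, gelatinase B, was not well above background on any NT array and was at least 1.80-fold higher in Si1AK (adjusted p = 0.00209). It entered the test, and the count of 10, only through Si1AK, so its p-value is not taken as support. Its measured means were -4.24 ± 0.30 in Si1AK and -6.09 ± 0.32 in NT (SD, n = 4 each), and its log2 difference was 0.58 after normexp and 0.78 in the authors' deposited value table, below that bound. Of the plasminogen activator system, urokinase Plau was at 0.94 (adjusted p = 0.00521) and its receptor Plaur at 0.71 (adjusted p = 0.00568), and Plaur against SiC was 0.94 ± 0.11 (adjusted p = 0.00086). The matriptase St14 (0.97 ± 0.22, adjusted p = 0.0303) lost its call without Si1AK 1, 2, 3 or 4 or NT 2 or 3, adjusted p 0.0502 to 0.085. Mmp13 (1.05, adjusted p = 0.111), Mmp3 (0.34), Mmp14 (0.12) and the inhibitors Timp1 (0.08) and Timp2 (0.17) were not called. Between Si1AK and SiC, 6 of the 24 were called higher (7 without the raised arrays), but Mmp10 was not (1.36 ± 0.39, adjusted p = 0.0721).

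The colony-stimulating factors, which raise and activate myeloid cells, made up 3 of the 4 cytokine genes called higher among 32 (0 lower, median 0.16). Csf2, or GM-CSF, was at 0.00, -0.07, -0.44 and -0.06 on the Si1AK arrays and -1.41, -1.69, -1.98 and -1.99 on the NT arrays. Csf3, or G-CSF, was at 2.27, 1.98, 1.73 and 1.75 in Si1AK and 0.81, 0.64, 0.16 and 0.51 in NT. Csf1, or M-CSF, was at 3.87, 3.97, 3.74 and 3.57 in Si1AK and 2.98, 2.69, 2.81 and 2.93 in NT. The 3 genes were higher on every Si1AK array, by 1.62 ± 0.16, 1.40 ± 0.17 and 0.94 ± 0.11 (limma adjusted p = 0.00149, 0.00332 and 0.00272). Csf3 differed from NT by 0.87 in SiC too, and Si1AK against SiC was not called for it (0.53 ± 0.26, adjusted p = 0.301), whereas it was called for Csf2 (1.45 ± 0.22, adjusted p = 0.00364) and Csf1 (0.86 ± 0.12, adjusted p = 0.00199). The chemokine Ccl2 was at 0.52 in Si1AK (adjusted p = 0.0184; lost without Si1AK 1 or 2, adjusted p 0.0544 to 0.0644), and SiC was at 0.60 relative to NT. Il6 (-0.14), Il1b (-0.05), Cxcl1 (0.18), Nfkbia (-0.03) and Icam1 (0.75, adjusted p = 0.14) were not called. Of 36 immediate early and MAPK feedback genes the phosphatase Dusp10 rose (0.77 ± 0.11, adjusted p = 0.0051) and the factor Etv5 fell (-0.37 ± 0.08, adjusted p = 0.0215), a fall with the opposite sign relative to the array median (0.11) and a call lost without Si1AK 1, 2 or 3, adjusted p 0.0519 to 0.0726.

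Stress and metabolic lists showed few calls. Of 35 genes of the unfolded protein and integrated stress response 4 were called lower and 0 higher (median -0.20, or 0.27 relative to the array median), Edem1 of ER-associated degradation (-0.52 ± 0.11, limma adjusted p = 0.0214; lost without Si1AK 1, 2 or 3, adjusted p 0.0504 to 0.0711) among them. The synthesis enzymes Psat1 (-0.39 ± 0.08) and Asns (-0.39 ± 0.09) and the transporter Slc7a5 (-0.39 ± 0.06) fell with adjusted p of 0.0226, 0.0291 and 0.00879, but relative to the array median they were at 0.078, 0.080 and 0.081. The call of Psat1 was lost without Si1AK 1, 2 or 3 or NT 2, adjusted p 0.0503 to 0.0755, and that of Asns without Si1AK 1, 2 or 3 or NT 1 or 2, adjusted p 0.0675 to 0.0881. Between Si1AK and SiC 0 of the 35 were called lower (4 without the raised arrays). Cholesterol synthesis had 5 of 28 lower and 0 higher (median -0.27, or 0.20 relative to the array median): the transporter Stard4 (-0.59 ± 0.14), Ebp (-0.51 ± 0.13), Pmvk (-0.44 ± 0.08), Fdps (-0.43 ± 0.09) and Sqle (-0.42 ± 0.10), with adjusted p between 0.016 and 0.0439. All 5 calls were lost without Si1AK 1 and without Si1AK 3, with adjusted p over the arrays that ended them of 0.0572 to 0.0895 for Stard4, 0.0515 to 0.114 for Ebp, 0.0514 to 0.0566 for Pmvk, 0.0521 to 0.0695 for Fdps and 0.0534 to 0.0903 for Sqle. Leaving out Si1AK 2 also ended those of Stard4, Ebp, Fdps and Sqle, and leaving out NT arrays those of Stard4 (NT 2, 3 or 4), Ebp (any) and Sqle (NT 1, 2 or 4). None of the 28 was called between Si1AK and SiC, with or without the raised arrays, and the list median between SiC and NT was -0.18. Besides Cryab, the 16 heat shock proteins held 1 call, Hsph1, lower by 0.40 but at 0.076 relative to the array median. In the hypoxia and glycolysis list the kinase Pfkfb4 rose (0.40 ± 0.07, adjusted p = 0.00956), as 1 of 31, and Ankrd37 was not called (-0.89, adjusted p = 0.0908; called without NT 4, adjusted p 0.0449). Of 31 NRF2 and glutathione genes 4 were called higher, Gstm5 (0.51 ± 0.09) and Gstm2 (0.43 ± 0.08), 2 glutathione transferases with adjusted p of 0.0127 and 0.0149, among them. Cbr3 and Me1 were the others, and they lost their calls without any 1 of the 8 arrays (adjusted p 0.0691 to 0.105 and 0.0572 to 0.115).

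Lysosome and autophagy genes were called higher in 6 of 28 cases and lower in 0 (median 0.17). The cholesterol exporter Npc1 was at 0.76, 0.86, 0.97 and 0.85 in Si1AK and 0.25, -0.06, 0.27 and 0.27 in NT, a difference of 0.68 ± 0.10 (limma adjusted p = 0.00516). The proton pump subunit Atp6v0d1 differed by 0.45 ± 0.08 (adjusted p = 0.0114). The calls of Hexa (0.38) and Ctsz (0.37), hydrolases of the lysosome, were lost for Hexa without Si1AK 1, 2, 3 or 4 or NT 1, 2 or 3, adjusted p 0.0514 to 0.116, and for Ctsz without Si1AK 2, 3 or 4 or NT 1, 2 or 3, adjusted p 0.0595 to 0.0909. None of the 28 was called between Si1AK and SiC. In the Notch list the glycosyltransferase Lfng fell as 1 of 21 (-0.46 ± 0.09, adjusted p = 0.0168, but 0.013 relative to the array median; lost without Si1AK 1, adjusted p 0.0608). Of 14 genes of RNA interference, the machinery siRNAs use, 3 were lower: Tnrc6c, a GW182 protein that recruits the silencing factors (-0.56 ± 0.07, adjusted p = 0.00481), and Tsn (-0.46 ± 0.09, adjusted p = 0.0149) and Tsnax (-0.26 ± 0.07, adjusted p = 0.0376), the subunits of C3PO, which clears the passenger strand. Relative to the array median no gene of this list was called and Tsn and Tsnax were at 0.0086 and 0.21. The call of Tsn was also lost without Si1AK 1, adjusted p 0.0536, and that of Tsnax without Si1AK 1, 2 or 3 or NT 1, 2, 3 or 4, adjusted p 0.0534 to 0.115. Tnrc6c was also called against SiC (-0.38 ± 0.08, adjusted p = 0.0178), and Si2AK was higher than Si1AK (0.79 ± 0.08, adjusted p = 8.03e-05).

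Markers of other cell types were summed in the same way as those of keratinocytes. Summed over 5 of 11 fibroblast markers measured, the linear signal relative to the 75th percentile was 1.10 to 1.59 on Si1AK arrays and 0.777 to 0.906 on NT arrays, against 1114 to 1254 on Si1AK arrays and 1322 to 1539 on NT arrays for 13 keratinocyte markers. Col1a1 (1.44 ± 0.28, limma adjusted p = 0.0162; lost without Si1AK 1, adjusted p 0.0554) and Mfap5 (0.99 ± 0.16, adjusted p = 0.0092) were called higher. Of the 5 measured, 4 had differences above 0 and 1 had a difference below it (-0.94). That fall was not called, though it was with slide or replicate number as a block. The list median was 0.81, with 1.01 on slide 1 and 0.19 on slide 2. Pdgfrb, Lum, Col3a1, Thy1, Fap and Dpt, fibroblast markers too, were not well above background. For 8 of 16 leukocyte markers the sum was 19.3 to 21.8 on Si1AK arrays and 18.9 to 21.1 on NT arrays, and Ptprc, Cd3g and Tyrobp were not well above background. Itgam had means of 3.38 ± 0.07 in Si1AK and 3.45 ± 0.22 in NT (SD, n = 4 each), and Cd4, Cd14 and Cd68 lay above the 75th percentile on every array of both groups too. Cd68 was called higher (0.84 ± 0.20, adjusted p = 0.0331; lost without Si1AK 1, 2 or 3 or NT 1 or 2, adjusted p 0.0667 to 0.0921). Of the 8 leukocyte markers, 3 had differences above 0 and 5 below it, with a list median of -0.05. Sums of 7 of 10 endothelial markers were 18.2 to 20.3 on Si1AK arrays and 19.9 to 24.9 on NT arrays. Cdh5 was called higher (1.27 ± 0.19, adjusted p = 0.00668), while the other 6 had differences below 0 that were not called (-0.70 to -0.05), and the list median was -0.23. Of these Kdr (3.06 ± 0.13 in Si1AK and 3.38 ± 0.29 in NT) and Egfl7 (3.39 ± 0.12 in Si1AK and 3.44 ± 0.09 in NT) lay well above the 75th percentile (SD, n = 4 each). Those of 4 of 8 melanocyte markers were 2.12 to 2.53 on Si1AK arrays and 2.04 to 2.37 on NT arrays, with Mlana higher (1.47 ± 0.24, adjusted p = 0.00869). Of the 4 melanocyte markers, 2 had differences above 0 and 2 below it, with a list median of 0.14. The part of such cells in the results was not tested.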

How the data were processed

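RNA of 14 samples of mSCC-38 cells was hybridised to Agilent 1-colour arrays, and 8 of them (4 Si1AK and 4 NT) enter the comparison. Per the file headers, each array's spot intensities were read by Agilent Feature Extraction 10.7.3.1, which subtracted the background to give the processed signal, and probes are placed on mm9. The labels give 0.2 µg of RNA with a RIN of 9 and 600 ng hybridised. The value table deposited by the authors gives log2 values, and the submitters' processing notes name limma. Its columns correlated at 0.991 or more with log2 of the raw mean signal and had medians of 6.51, so it is on a log2 scale with arrays brought to a common level, and whether genes were centred is not stated.

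From the deposited intensities, log2 of the processed signal minus the 75th percentile of each array was taken over 59305 spots other than controls. Outlier spots were left out and spots of a probe were averaged. A probe was kept if marked well above background on all 4 Si1AK or all 4 NT arrays (28891 of 55681), and the kept probe with the highest mean stood for a gene, which left 20474 genes, 14181 of them with a RefSeq symbol. For 105 genes a flagged spot left a value missing. R 4.3.3 and limma 3.58.1 (lmFit, eBayes, Benjamini-Hochberg) fitted the 8 arrays with group alone. Contrasts with SiC and Si2AK came from 1 fit of all 14 arrays over the same genes. Levels were also simulated from the means and spreads of these arrays, with independent noise and 67, 67 and 66 genes changed by 0.5, 1 and 2 log2 units. Of these 32.8%, 55.2% and 87.9% were recovered, with 2 false calls. The data held many more calls and noise shared by slide, so these shares do not carry over to them. The replicate numbers were checked for pairing and did not pair the samples, though deviations went with the slide, which the main fit leaves out.

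Genes named in the text are the 12 called genes of largest difference in each direction whose groups did not overlap, up to 5 per direction with a bound, up to 5 called members of each list (or its largest member where fewer than 2 were called) and all keratinocyte markers. Other list members named were chosen after their values were seen. The comparison, its lists and its tests were chosen with earlier results of these data known. Alternatives were another scaling, background correction, filter, probe rule, block, set of arrays or left-out replicate. Promoters are RefSeq's, of GRCm38.p6. Some genes that the rule or the lists hold are not reported here.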

Additional observations from a re-analysis of the deposited data

Results flagged for a closer look

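An array was set apart when its gap to the nearest of the other 3 arrays of its group, divided by the range of the group, exceeded the critical value of Dixon's test for 4 samples. This held in 16 of 298 groups of 4 arrays (5.37%), and chance gives about 1 in 20.

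Among Si1AK arrays, the ratio was 0.846 for Cyfip2, with replicate 1 lowest at 1.02 and the others at 1.27 to 1.31. It was 0.971 for Oasl2, with replicate 2 highest at -1.60 against -2.07 to -2.06 on the others, and 0.898 for Cbr3, with replicate 2 highest at 2.21 against 1.97 to 1.99. Replicate 3 was lowest for Krt6b (0.930; 1.98 against 2.44 to 2.48), Csf2 (0.833; -0.44 against -0.07 to 0.00) and Me1 (0.935; 3.68 against 3.81 to 3.82). Replicate 4 was lowest for Bub1b (0.905; 1.67 against 1.83 to 1.85), Cnn2 (0.864; 5.01 against 5.16 to 5.18) and the 75th percentile of the processed signal itself (0.840; 797 against 983 to 1019).

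Among NT arrays, replicate 1 was lowest for Krt6a, a keratin of activated keratinocytes (0.830; 2.71 against 4.26 to 4.58), and highest for the Notch ligand Dll4 (0.862; -3.04 against -4.67 to -4.44) and for Epcam (0.860; -2.48 against -3.98 to -3.77). Krt6a was not called over all arrays and had an adjusted p of 0.015 without NT replicate 1, and Dll4 one of 0.00427 (limma). Replicate 2 was lowest for Polk (0.867; -0.90 against -0.64 to -0.60), Fhl1 (0.848; -3.30 against -2.94 to -2.88) and Npc1 (0.940; -0.06 against 0.25 to 0.27), and replicate 4 for Me1 (0.845; 3.35 against 3.51 to 3.54).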

How the results depend on the processing

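The 2425 calls (1259 higher, 1166 lower) became 1576 (678 lower) in a fit of all 14 arrays, 429 (270 higher, 159 lower) within slide 1, 0 (0 higher, 0 lower) within slide 2, where 3209 genes had an unadjusted p below 0.05, and 1113 (568 higher, 545 lower) with no filter on dim probes. Of the calls, 298 were at least 2-fold. With slide as a block 1845 were lower. Higher calls numbered 2302 relative to the array median, where 96 were lower, 2011 after normexp and quantile normalization, and 2000 in the authors' deposited value table. Leaving out 1 array gave 982 to 2353 calls, 611 to 1103 higher and 371 to 1250 lower. Between SiC and NT there were 1 call (1 higher) with slide as a block and 0 to 7 with 1 SiC array left out (0 to 6 higher, 0 to 1 lower). Between Si1AK and SiC leaving out 1 SiC array, or the 2 raised arrays, gave 607 to 1001 calls (464 to 696 higher, 143 to 305 lower), and 415 lower calls with slide as a block. Of 132 named genes that were called, all kept their direction and 85 their call with any 1 array left out. Their direction was nearly bound to hold, since these fits share most arrays with the main one.

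Relative to the array median, differences had the opposite sign for Cdk2 (0.068), Cdkn2d (0.075), Krt14 (0.068), Krt5 (0.12), Krt18 (0.023), Prrx1 (0.022), Etv5 (0.11), Psat1 (0.078), Asns (0.080), Slc7a5 (0.081), Hsph1 (0.076), Pmvk (0.035), Fdps (0.041), Sqle (0.048), Lfng (0.013), Tsn (0.0086) and Tsnax (0.21), by construction of a scaling that adds 0.47. The mean of both probes gave -0.39 for Zeb2. That scaling flipped 15 of 31 list medians, and the others at most 4. Other causes were not tested.

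The pairing of replicate numbers was checked: same-numbered Si1AK and NT arrays had deviations that correlated at 0.24, 0.14, 0.17 and 0.10, and not every array correlated best with its own number. Deviations of Si1AK and NT arrays on the same slide correlated at 0.07 to 0.34, and those on different slides at -0.28 to 0.01. The main fit holds no slide term, and calls with slide as a block are given above. With a replicate block there were 1576 calls, 724 of them lower.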
